A study of Arabidopsis thaliana with 3 samples.

Results

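The loci described here are those for which the deposited table lists a ribosomal protein domain. A locus was a member when at least 1 of its entries had the words "ribosomal protein" in the name of a Pfam domain (Pfam is a database of protein domain families). The rule took 65 of the 6814 genes of the table. By their annotation or domain family, 17 encode proteins of the large (60S) subunit of the cytosolic ribosome, 19 of the small (40S) subunit and 24 of organellar ribosomes. The remaining 5 carry a listed ribosomal domain, but no subunit was assigned to them. The label held for 57 of the 65 members, which the deposited annotation itself calls ribosomal proteins. The others lack that wording in the annotation, and some of them were placed in a subunit all the same. Among the others the label did not hold for AT5G03380, annotated as a heavy-metal-associated protein, nor for AT1G58602, annotated as a disease resistance protein of the NBS-LRR class.

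The samples were whole seedlings of Arabidopsis thaliana, Col-0 wild type, 10 days old, from which total RNA was taken. One library each came from seedlings kept in white light and from seedlings given 45 or 90 min of far-red enriched light, the signal by which plants sense shade. All 3 libraries carried the wild-type genotype. The assay was PEAT, paired-end analysis of transcription start sites, in which the read marks the 5′ end of a transcript. For each transcript the table gives all reads, the reads in a first start window and the reads in a second start window that leaves part of the coding sequence downstream. Each condition had 1 library, so every test below compares libraries and not conditions, and every interval covers counting error only. Reads were amplified and carry no molecular identifiers, so they are not independent molecules.

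Ribosomal proteins wrap and stabilise the ribosomal RNA, and a plant cell builds separate sets for the ribosomes of the cytosol, the plastids and the mitochondria. In Arabidopsis most cytosolic ribosomal proteins are encoded by small families of near-identical paralogs, and the organellar members listed here are encoded in the nucleus, so that their proteins are imported. A start site inside the coding sequence would give a transcript whose protein lacks the N-terminal part, or no protein of that frame at all, and the table does not show which.

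The table totals, counted with 1 transcript per gene, were 3440656 reads in white light, 4373900 after 45 and 4125024 after 90 min. Levels are given as reads per 1000000 of these totals (RPM), and a start-site read was not divided by transcript length. Of the shade-response genes ATHB2, PIL1 and HFR1, all 3 were past 2-fold higher at both far-red times. Of the leaf markers listed, 1 of 6 was in the table (RBCS3B, 44934, 42385 and 49871 RPM in white light, at 45 and at 90 min), and of the root markers 0 of 8. Differences in the makeup of the seedlings were therefore not tested, and in bulk RNA fewer cells of a type and less RNA per cell cannot be told apart. Among the members, 20 overlap another annotated gene, and the strand used in counting is not given in the sources used here.

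The ribosomal protein loci together held a steady share of the reads. They had 44582 reads in white light, 57263 after 45 and 52714 after 90 min, which is 1.30%, 1.31% and 1.28% of the table. The median member had 82.5, 82.3 and 82.2 RPM in the same order, against 45.0, 43.0 and 44.1 RPM for the median gene of the table. Members above the median gene numbered 41, 42 and 43 of 65. The reads were concentrated in few loci, since the 8 members with the most reads held 52.2%, 55.3% and 53.2% of all member reads. These 8 were 1 stalk protein, 2 other 60S proteins, 2 40S proteins, 2 plastid proteins and AT5G03380.

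**Figure D1:**
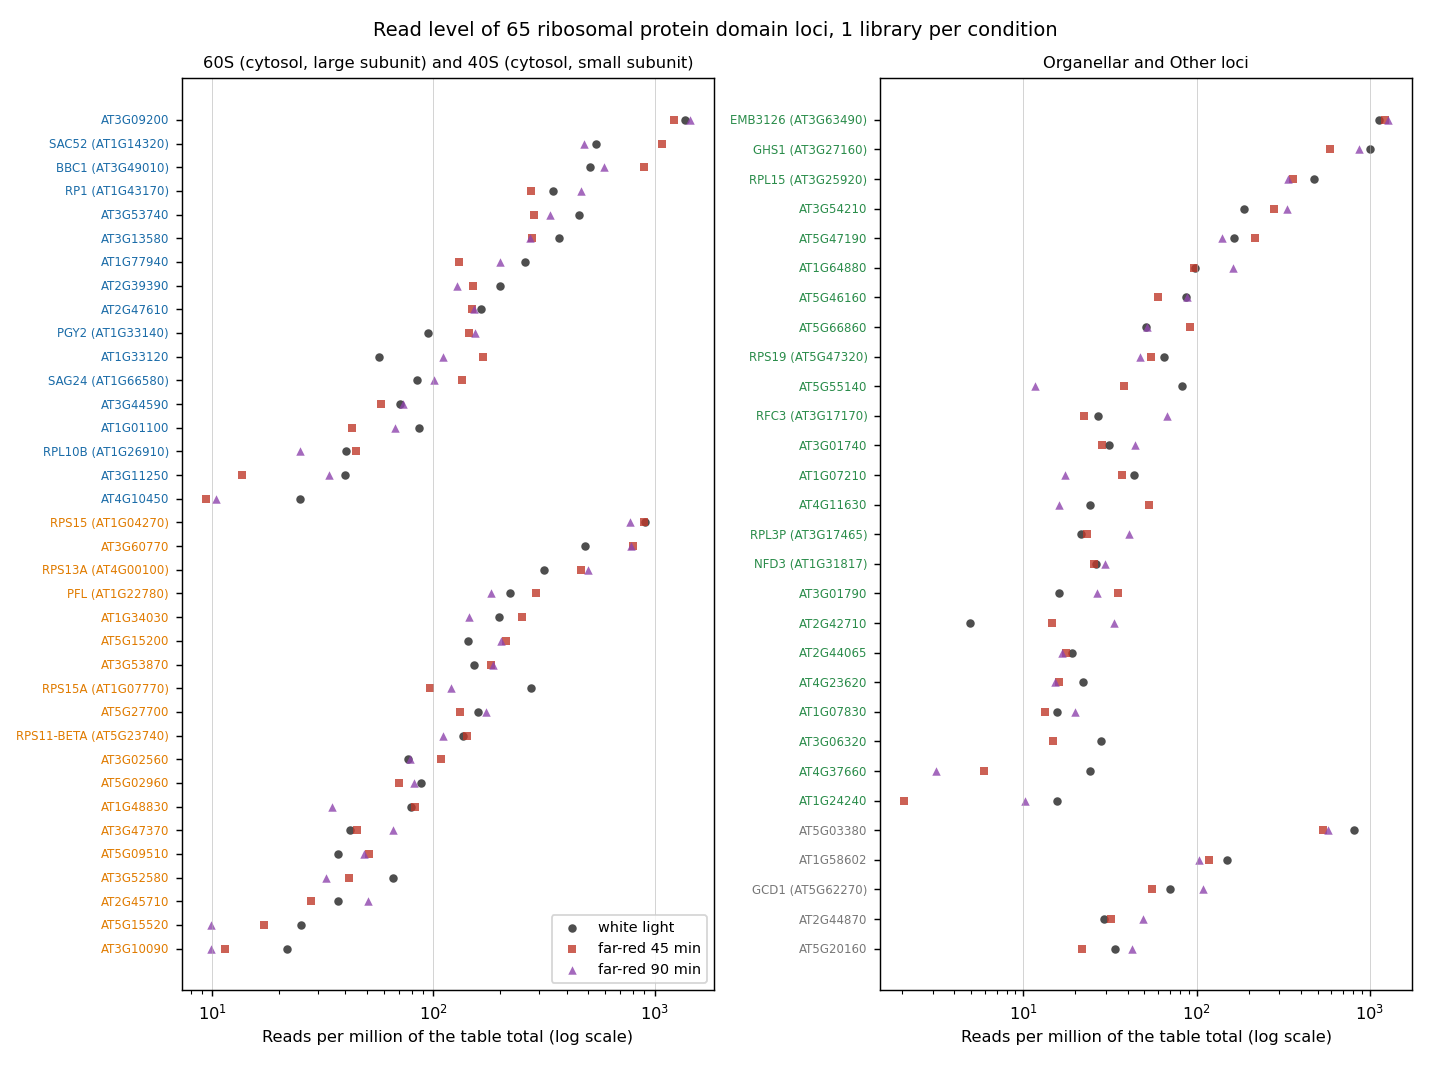
Read level of each of the 65 loci in white light (circles), at 45 min (squares) and at 90 min (triangles) of far-red enriched light, in RPM on a log axis, with 1 library per condition. Loci are grouped by subunit (blue 60S, orange 40S, green organellar, grey other); AT3G06320 had 0 reads at 90 min and has no triangle. Most loci keep their 3 symbols close together, while RPS15A, AT5G55140 and AT4G37660 lie far lower at 90 min than in white light.

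Past 2-fold differences of level were read on a log2 scale after adding 1 RPM, for loci with at least 20 reads in one of the 2 libraries. At 45 min 4 of 65 members were past 2-fold higher than in white light and 6 lower, where 14.0% and 10.9% of all genes were. At 90 min 2 were higher and 9 lower, against 15.8% and 12.4% of all genes. Between 90 and 45 min 4 were higher and 6 lower, against 8.67% and 8.35%. The 2-fold differences were thus fewer upward than in the table at both times against white light, and no replicate allows a test of this. The median log2 ratio of the members was -0.17 at 45 min, -0.10 at 90 min and 0.03 between the far-red times, against -0.03, -0.00 and 0.03 over all genes. With loci of at least 100 reads alone the members' median at 90 min was 0.04, so its sign rests on the loci with few reads. Under the same minimum the 45 min median was -0.03, against -0.04 over all genes, so the lower value at 45 min rests on those loci too. From first-window reads alone the 90 min median was -0.28, against -0.02 over all genes. With TMM scaling the median between the far-red times was -0.01.

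The second measure was the second-window share, the percentage of window reads that lie in the second windows. Over all member reads it was 26.6% in white light, 30.1% after 45 and 32.4% after 90 min, where the whole table had 34.3%, 37.3% and 39.0%. The pooled share of the 40S loci was the highest of the subunit groups in every library, with 36.4%, 45.2% and 48.1%. The 60S loci had 22.2%, 25.2% and 28.0%, and the organellar loci 17.7%, 18.3% and 22.4%. A few deep loci weigh heavily in these pooled values. The group medians kept this order in white light and at 90 min but not at 45 min. The median share was 31.1%, 22.7% and 39.4% in 40S loci, 26.9%, 29.7% and 33.6% in 60S loci and 25.0%, 27.6% and 24.2% in organellar loci, so the 40S median was the lowest of the 3 groups at 45 min. Over all members the median was 25.4%, 28.5% and 30.6%, and over all genes it was 37.4%, 36.1% and 41.3%.

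A share was called changed when a two-sided Fisher's exact test gave a Benjamini-Hochberg adjusted p under 0.05 over all genes tested and the share moved by at least 10 percentage points, with 20 window reads in both libraries. At 45 min 35 of 63 members tested were called, 22 upward and 13 downward, against a background of 65.9% of all genes (31.9% upward, 34.1% downward). At 90 min 42 of 62 were called, 28 upward and 14 downward, against 68.1% (37.6% and 30.6%). At this minimum of 10 points and without matching by depth, calls were less frequent than in the table at 45 min and about as frequent at 90 min. With no minimum change they were 74.6% against 74.1% of all genes at 45 min and 83.9% against 76.1% at 90 min. Between 90 and 45 min 19 of 62 members were called, 13 upward and 6 downward, where the background was 57.5% (34.6% and 22.8%).

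Calls were fewer among deep loci than among shallow ones, in the members as in the table. At 45 min 16 of 23 members with 20 to under 200 window reads were called, 15 of 27 with 200 to under 1000 and 4 of 13 with 1000 or more, against 72.8%, 58.4% and 36.5% of genes of those depths. At 90 min these were 23 of 26, 13 of 23 and 6 of 13, against 76.7%, 57.7% and 35.9%. The members' percentages at 90 min were 88.5%, 56.5% and 46.2%, on few loci per depth, and their difference from genes of that depth was not tested. The lower count between the far-red times was present at each depth. Among members with 20 to under 200 window reads 10 of 25 were called, against 64.1% of genes of that depth. Of those with 200 to under 1000 reads 7 of 23 were called, against 50.9%, and of those with 1000 or more 2 of 14, against 29.1%. The median size of the change between 45 and 90 min was 7.06 points for the members and 14.7 points over all genes. From the shallowest to the deepest loci it was 10.0, 6.31 and 6.32 points for the members and 20.5, 10.2 and 6.75 points over all genes, so the difference was small at 1000 or more reads. Of the cytosolic loci 8 of 36 were called, of the organellar loci 11 of 21 and of the loci with no assigned subunit 0 of 5.

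**Figure D2:**
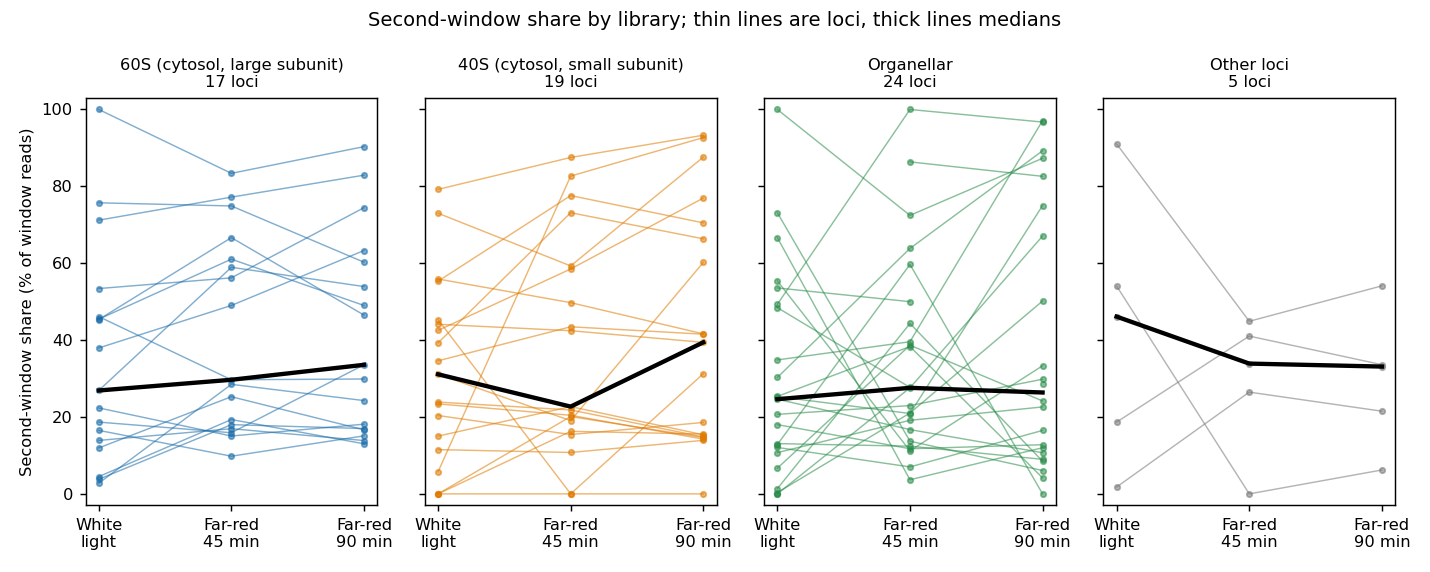
Second-window share of each locus (thin lines, percent of window reads) in white light and at 45 and 90 min of far-red enriched light, by subunit group; thick lines join the medians. Only libraries with at least 20 window reads are drawn. Lines cross in every group, and the 40S median goes from 22.7% at 45 min to 39.4% at 90 min.

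**Figure D3:**
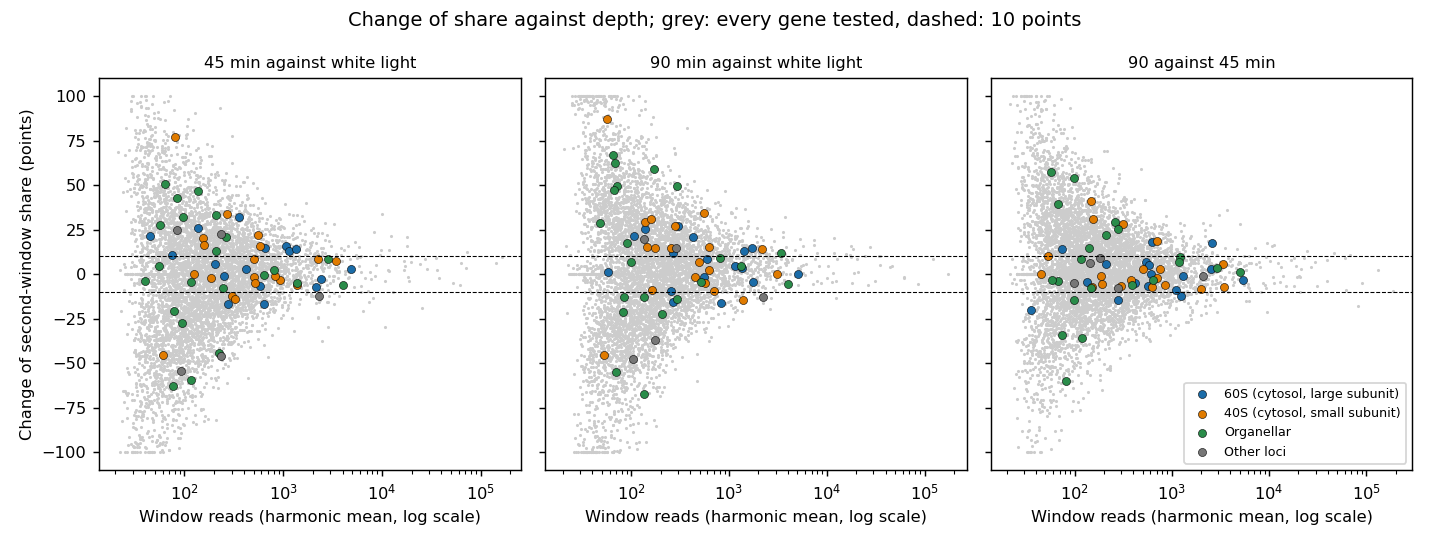
Change of the second-window share in points (vertical axis) against the window reads of the locus (harmonic mean of the 2 libraries, log axis) for each pair of libraries; grey points are all genes tested and coloured points the ribosomal protein loci. Dashed lines mark 10 points, and most coloured points of the right panel, 90 against 45 min, lie between them.

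Of the 61 members tested at both far-red times, 25 were called in the same direction at both, 16 upward and 9 downward, against 44.1% of all genes tested at both. Both comparisons share the white light library. Another 15 were called at neither time, 5 at 45 min alone and 12 at 90 min alone. The calls went opposite ways in 4 loci, namely AT1G07210, AT1G48830, AT3G02560 and AT5G55140, which were named after their values were seen. No share over all genes was taken for loci called at neither time, at a single time or in opposite ways. None was taken for the split into 16 upward and 9 downward either, so these counts are not set against the table.

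The stalk of the 60S subunit is the lateral arm that recruits the GTPase factors of translation, and P0 is the protein that anchors it to the ribosome. The P0 gene AT3G09200 (chromosome 3) had 1375 RPM in white light, 1221 after 45 and 1441 after 90 min, the most reads of any member. Its second-window share was 13.9%, 17.0% and 13.9%, so the libraries lay within 4 points of each other and none of the pairs was called. Its paralog AT3G11250 had 39.8, 13.7 and 33.7 RPM, which is 2.81%, 1.11% and 2.29% of the reads of both P0 genes. That locus was low at 45 min alone, at 0.345 times the white light level (95% interval 0.25 to 0.47). Its second-window share was 38.0%, 49.0% and 63.3%, and the rise of 25.4 points at 90 min was called (Fisher's exact test, adjusted p = 7.11e-05). This share sums windows that changed places. The one that leaves 346 of 972 coding bases held 0, 17 and 88 reads, and the one that leaves 793 bases held 52, 8 and 0.

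The acidic stalk proteins that P0 anchors were represented by AT1G01100 and AT3G44590. AT1G01100 had 86.0, 43.0 and 67.2 RPM, and AT3G44590 had 70.6, 58.3 and 73.2 RPM. Both were lowest at 45 min. Most window reads of both loci lay in the second windows, 71.2%, 77.2% and 82.9% for AT1G01100 and 75.7%, 74.9% and 60.3% for AT3G44590. At 90 min the shares had moved apart, since that of AT1G01100 rose by 11.7 points (Fisher's exact test, adjusted p = 0.0021) and that of AT3G44590 fell by 15.5 points (adjusted p = 0.000276).

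Among the other 60S proteins the L10 family stood out by level. SAC52, which encodes L10 and was found in Arabidopsis as a suppressor of a stem elongation mutant, had 541 RPM in white light, 1078 after 45 and 479 after 90 min. The 45 min library was high, at 1.99 times white light (95% interval 1.89 to 2.1), which after the added 1 RPM is a log2 ratio of 0.99, just under the 2-fold line. Its second-window share was 18.7%, 15.9% and 33.6%, high at 90 min alone (14.9 points above white light, Fisher's exact test, adjusted p = 2.01e-22). The paralogs SAG24 and RPL10B had lower levels, 84.3, 135 and 100.4 RPM and 40.4, 44.6 and 25.0 RPM. Both had a higher share at both far-red times, at 26.9%, 58.9% and 53.9% in SAG24 and 2.78%, 28.5% and 24.3% in RPL10B. SAC52 kept 81.3%, 85.7% and 79.3% of the family's reads.

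BBC1, which encodes L13, had 513, 898 and 591 RPM and was highest at 45 min, as SAC52 was. Its share was 22.4%, 15.1% and 18.1%, and no pair was called. The L36 gene AT3G53740 had 454, 286 and 338 RPM and a share that was low in white light alone, with 3.79% (95% Wilson interval 2.94 to 4.89) against 18.0% and 17.0%. The rise was called at both far-red times (Fisher's exact test, adjusted p = 1.12e-33 and 1.14e-31). This locus was named after its values were seen. RP1, which encodes L3, had 346, 277 and 466 RPM and a share of 45.4%, 61.1% and 49.0%, called at 45 min alone against white light. The locus has 3 second windows, which leave 1142, 695 and 333 of its 1170 coding bases.

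The L9 genes AT1G33120 and PGY2 both lie on chromosome 1, and PGY2 is known for its effect on leaf shape. AT1G33120 had 56.7 RPM in white light, 168 after 45 and 111 after 90 min, so white light was the low library. The 45 min level was 2.97 times white light (95% interval 2.54 to 3.50). In white light all of its 174 window reads lay in the second windows, and the share was 100%, 83.4% and 90.3%. PGY2 had 94.2, 144 and 154 RPM, and its share of 53.4%, 56.2% and 74.4% was high at 90 min alone (Fisher's exact test, adjusted p = 3.31e-10 against white light). The second windows of PGY2 did not move together. The one that leaves 185 bases held 28, 264 and 314 reads, while the one that leaves 245 bases held 144, 85 and 158 reads. Both genes have windows at 185 and 245 bases before the stop, and how reads that match more than one locus were placed is not given in the sources used here. The other L9 gene of the table, AT4G10450, had 25.0, 9.37 and 10.4 RPM.

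Of the remaining 60S loci none was past 2-fold in level in any pair. The L7 gene AT3G13580 had 371, 278 and 274 RPM and a share of 12.0%, 25.3% and 16.7%, high at 45 min alone (Fisher's exact test, adjusted p = 8.03e-16 against white light). AT2G39390, an L35 gene, had 201, 151 and 128 RPM and a share of 4.49%, 19.3% and 13.0%, also called at 45 min alone. The share of AT1G77940, an L30 gene, was called downward at both times, from 46.1% to 29.7% and 29.9%, with 260, 130 and 200 RPM. In AT2G47610, an L7a gene, no pair was called (16.5%, 9.80% and 15.1%). These 4 loci were named after their values were seen.

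**Figure D4:**
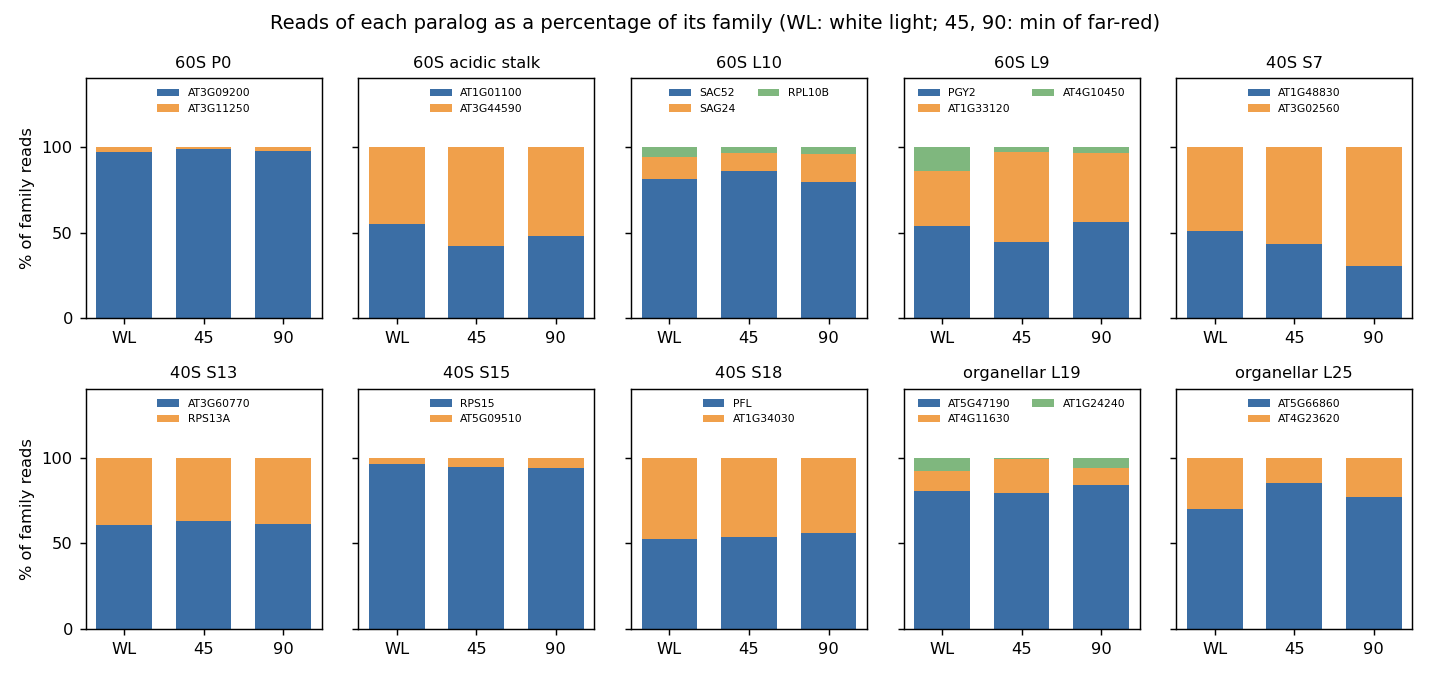
Percentage of its family's reads held by each paralog in white light (WL) and at 45 and 90 min of far-red enriched light. A family holds members only, so annotated ribosomal protein loci of the table that lie outside the rule are not counted in it. Drawn are 10 of the 11 families with more than 1 member (organellar L1, where EMB3126 holds over 97% in each library, is not drawn). Of those drawn, the main gene keeps over 90% of the reads in P0 and S15, whereas in S7 AT3G02560 goes from 49.3% to 69.3% and in L9 the order of the leading genes differs between libraries.

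In the 40S subunit RPS15, a protein of the head of the subunit, had the most reads, with 909, 891 and 770 RPM. Its share of 15.0%, 22.7% and 15.4% was high at 45 min, and no pair reached 10 points. The S13 genes carried large second-window shares. AT3G60770 had 487, 802 and 784 RPM and a share of 79.2%, 87.5% and 93.3%, so most window reads lay in the second windows in every library. They leave 323 and 381 of 456 coding bases with the listed domain whole. Its paralog RPS13A had 317, 467 and 502 RPM and a share of 55.9%, 49.7% and 41.6%. Both S13 loci were higher at both far-red times (1.61 and 1.58 times white light at 90 min), but their shares at 90 min were called in opposite directions, with a rise of 14.1 points in AT3G60770 (Fisher's exact test, adjusted p = 1.2e-43), while that of RPS13A fell by 14.3 points (adjusted p = 3.38e-13).

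RPS15A was the deepest of the 40S loci past 2-fold, with 276 RPM in white light, 96.5 after 45 and 120 after 90 min. White light was the high library, and the level at 90 min was 0.434 times it (95% interval 0.389 to 0.485). Its share was 44.1%, 42.5% and 39.4%, and no pair was called. The S7 genes went apart in level at 90 min. AT1G48830 had 79.1, 82.3 and 34.9 RPM and AT3G02560 had 76.7, 109 and 78.8 RPM. Both had their lowest second-window share at 45 min and their highest at 90 min, with 31.1%, 19.1% and 60.2% in AT1G48830 and 73.0%, 59.3% and 87.6% in AT3G02560. At 90 min 35.4% and 23.1% of the reads of these loci lay outside both kinds of window, against 0.735% and 0.379% in white light. The part of those reads in the change was not tested.

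The share of AT3G53870, which encodes S3, a protein at the entry of the mRNA channel, was 42.5% in white light, 58.5% after 45 and 76.9% after 90 min. The 95% Wilson intervals of the 3 libraries do not overlap (38.2 to 47.0, 54.9 to 62.0 and 73.6 to 80.0), and each pair was called. Its level was 153, 182 and 186 RPM. The second windows of AT3G53870 went opposite ways at 45 min. The one that leaves 285 bases held 96, 399 and 334 reads, and the one that leaves 626 bases held 106, 31 and 190. The S19 gene AT5G15520 had the widest move among the 40S loci, from 5.75% to 82.7% and 92.7%, on 87, 75 and 41 window reads (Fisher's exact test, adjusted p = 1.78e-22 at 90 min). It was named after its values were seen. AT3G52580, an S14 gene, had 65.7, 41.6 and 32.7 RPM, just under a 2-fold difference at 90 min with a log2 ratio of -0.98. The S20 gene AT3G47370 had 42.1, 45.3 and 65.9 RPM and none of its 144 window reads in the second window in white light (share up to 2.08% at a floor of 3 reads, and up to 2.60% by the 95% Wilson interval). Its share was 20.1% and 14.7% at the far-red times.

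The S18 genes PFL, known from a mutant with pointed first leaves, and AT1G34030 divided their reads alike in the 3 libraries, and PFL held 52.8%, 53.6% and 55.8%. PFL had 221, 290 and 183 RPM and AT1G34030 had 198, 251 and 145 RPM, both highest at 45 min and lowest at 90 min. No share of this pair was called. Rises at both far-red times were called in AT5G27700, an S21 gene (55.3%, 77.6% and 70.5%), in the S23 gene AT5G02960 (39.3%, 73.1% and 66.3%) and in the minor S15 gene AT5G09510 (0%, 16.3% and 15.6%). In AT2G45710, an S27 gene, no window read lay in the second window in white light or at 45 min, and 31.2% did at 90 min. On the downward side the S28 gene AT3G10090 went from 45.3% to 0% in both far-red libraries, on 75, 50 and 41 window reads. These 7 loci were named after their values were seen.

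In the organellar ribosomes the levels spanned the widest range. EMB3126, the plastid L1 protein, known in Arabidopsis for the arrest of embryos that lack it, had 1127, 1220 and 1280 RPM. GHS1, the plastid S21 protein, known from a mutant hypersensitive to glucose, had 1005, 591 and 873 RPM and was low at 45 min. The share of GHS1 was 10.7%, 19.1% and 22.6%, called at 90 min (Fisher's exact test, adjusted p = 1.34e-38), and that of EMB3126 was 18.0%, 11.7% and 12.8%, called in no pair. The plastid L17 gene AT3G54210 had 188, 281 and 334 RPM, with 1.78 times the white light level at 90 min (95% interval 1.62 to 1.96). RPL3P had 21.5, 23.3 and 41.0 RPM and a share that was high at 45 min alone (1.35%, 44.3% and 8.50%).

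The locus RFC3, which encodes a bacterial-type S6 protein and is known in Arabidopsis as a regulator of fatty acid composition, had 27.0, 22.4 and 67.4 RPM and was high at 90 min, at 2.49 times white light (95% interval 1.96 to 3.19). Its windows changed places. The second window that keeps the domain whole held 62 reads in white light and 0 in both far-red libraries, while the one that leaves 347 of 945 coding bases, with no ribosomal domain listed, held 29, 71 and 220 reads. AT2G42710, an L1-type locus, had 4.94, 14.6 and 33.5 RPM from 17, 64 and 138 reads, the largest upward ratio of a member at 90 min with 6.77 times white light (95% interval 4.08 to 12.0).

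Other organellar loci were lower under far-red. The L30-type gene AT5G55140 had 82.5, 38.2 and 11.6 RPM, lower in each library in that order, with 0.141 times the white light level at 90 min (95% interval 0.102 to 0.192). Its second window leaves 329 of 330 coding bases, and its share was 25.4%, 38.3% and 4.17%. AT3G06320, an L33 gene, had 97, 65 and 0 reads. At 90 min it was at least 38.8-fold lower than in white light, taken against a floor of 3 reads in that library, and the exact 95% interval of the ratio reaches up to 0.0323. AT1G07210, with a bacterial-type S18 domain, had 43.6, 37.3 and 17.5 RPM and a share of 12.8%, 59.7% and 0%. None of its 59 window reads at 90 min lay in a second window (share up to 5.08% at a floor of 3 reads, and up to 6.11% by the 95% Wilson interval). AT2G42710 and AT3G06320 were named after their values were seen.

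The organellar L19 genes differed from each other in level. AT5G47190 had 166, 216 and 140 RPM and held 80.6%, 79.6% and 84.3% of the reads of the 3 genes. AT4G11630 had 24.1, 53.3 and 16.0 RPM, high at 45 min, and its share was 25.3%, 20.9% and 75.0%, high at 90 min (Fisher's exact test, adjusted p = 7.33e-09 against white light). AT1G24240 had 15.7, 2.06 and 10.2 RPM, and with 9 window reads at 45 min its share was not tested there. AT4G37660, of the family that forms the stalk of bacterial ribosomes, had 24.4, 5.94 and 3.15 RPM, lower in both far-red libraries. The share of AT2G44065, an L2-type locus, was 34.8%, 39.6% and 97.1%, and that of RPL15, the plastid L15 protein, 12.1%, 7.01% and 16.5% with 480, 359 and 338 RPM. These 6 loci were named after their values were seen.

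Among loci with at least 50 window reads in every library, 4 of the 5 largest rises of share called at both far-red times were in organellar genes. Organellar genes are 24 of the 65 members, but only 56 members meet that minimum, and the organellar part of the 56 was not counted. The 40S gene AT5G15520 rose further, by 86.9 points at 90 min, but its 41 window reads there left it out of the ranking. Organellar loci were shallower, with a median of 102.5 reads in white light against 481.5 in cytosolic loci. The median size of the change of members at 90 min against white light, in either direction, was 28.8 points at 20 to under 200 window reads. At 1000 or more it was 5.23 points. The part of depth in this ranking was not tested. AT5G46160, an L14-type gene, had 1 of 299 window reads in its second window in white light (0.334%), 21.0% after 45 min and 50.2% after 90 min (Fisher's exact test, adjusted p = 3.02e-52). Its level was 86.9, 59.7 and 87.8 RPM, so the white light and 90 min levels lay within counting error of each other. The L25 genes AT5G66860 and AT4G23620 rose together, from 30.3% to 63.8% and 89.3% and from 49.3% to 100% and 96.7%. In AT5G66860 the window that leaves 332 of 750 bases held 2 reads in white light, 210 after 45 and 111 after 90 min. AT1G07830, annotated as mitochondrial L47, had 0%, 27.6% and 67.1% on 54, 58 and 82 window reads.

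Of the falls called at both times in those loci, the largest at 90 min was that of AT3G01740, whose domain is that of mitochondrial L37. Its share was 73.1% in white light, 13.7% after 45 and 6.08% after 90 min (Fisher's exact test, adjusted p = 1.61e-32 at 90 min). In AT3G01790, an L13-type gene with the larger fall at 45 min, the share was 66.7%, 3.68% and 12.0%, and in RPS19, which encodes the mitochondrial S19 protein, 55.4%, 11.2% and 33.3%. White light was the high library in all 3 loci. Their levels were 31.4, 28.4 and 43.9 RPM, 16.0, 35.0 and 26.7 RPM, and 64.5, 54.9 and 47.3 RPM. The level of AT3G01790 was thus past 2-fold higher at 45 min, where its share was lowest.

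All 5 loci with no assigned subunit were called in the same direction at both times against white light, as 44.1% of all genes tested at both were. AT5G03380, the heavy-metal-associated protein, had 812, 539 and 576 RPM and a share of 46.1%, 33.9% and 33.1%. AT1G58602, the disease resistance protein, had 149, 119 and 104 RPM and a share of 91.0%, 44.9% and 54.1%, and 56.5%, 52.8% and 65.8% of its reads lay outside both kinds of window. AT2G44870, with an S27 domain, had 29.4, 32.2 and 49.0 RPM and a share of 54.1%, 0% and 6.21%. These shares were highest in white light. GCD1, needed for female gamete development in Arabidopsis, had a share of 18.7%, 41.0% and 33.6%, and AT5G20160, of the L7Ae family, 1.79%, 26.5% and 21.5%.

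The coding length left downstream of the second window was long in these loci, but the rule shapes it. The table lists a domain only where at least 60% of it remains, so the rule takes no locus whose second windows all cut deeper into the ribosomal domain. Of 141 member entries 116 list the domain, with a median of 98.5% of it left, and 57 list it whole. Where a locus has several second windows, the one with the most reads over the 3 libraries was taken first. Downstream of this most-read window the median member kept 69.1% of its coding sequence (range 15.2% to 99.7%), and 50 of 65 kept over 50%. Downstream of the second window that cuts furthest the median was 64.7% (range 3.85% to 99.7%), and 45 of 65 kept over 50%. For the most-read window the median over all genes was 47.6%, and over genes with any listed domain, which meet the same threshold, 57.8%. By subunit the medians of the most-read window were 77.3% in 40S, 72.7% in 60S and 61.6% in organellar loci. The members are short, with a median coding sequence of 585 bases against 1299 in the table.

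Another 46 loci that the deposited annotation calls ribosomal proteins lie outside the rule, 35 of them with no listed domain. Their median coding length left by the most-read window was 49.9%. In them 22 of 46 were called at 45 min, 26 of 46 at 90 min and 16 of 46 between the far-red times. These are 47.8%, 56.5% and 34.8%, against 65.9%, 68.1% and 57.5% of all genes, with no matching by depth.

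Most loci have 1 second window (45), while 19 have 2 and RP1 has 3. Ranked by the most-read window, AT5G55140 (99.7% left), RP1 (97.6%) and AT3G47370 (95.9%) lay at the upper end, although another window of RP1 leaves 28.5%. At the lower end by the same measure lay AT1G58602, which leaves 15.2% of 3417 bases, AT1G48830 with 29.0% of 576 and GCD1 with 29.6% of 1263. The most-read windows of those last 3 loci list no ribosomal domain, and another second window of the same transcript does. Less-read windows of AT2G42710 and AT5G03380 leave 3.85% of 1248 and 20.3% of 1179 bases.

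**Figure D5:**
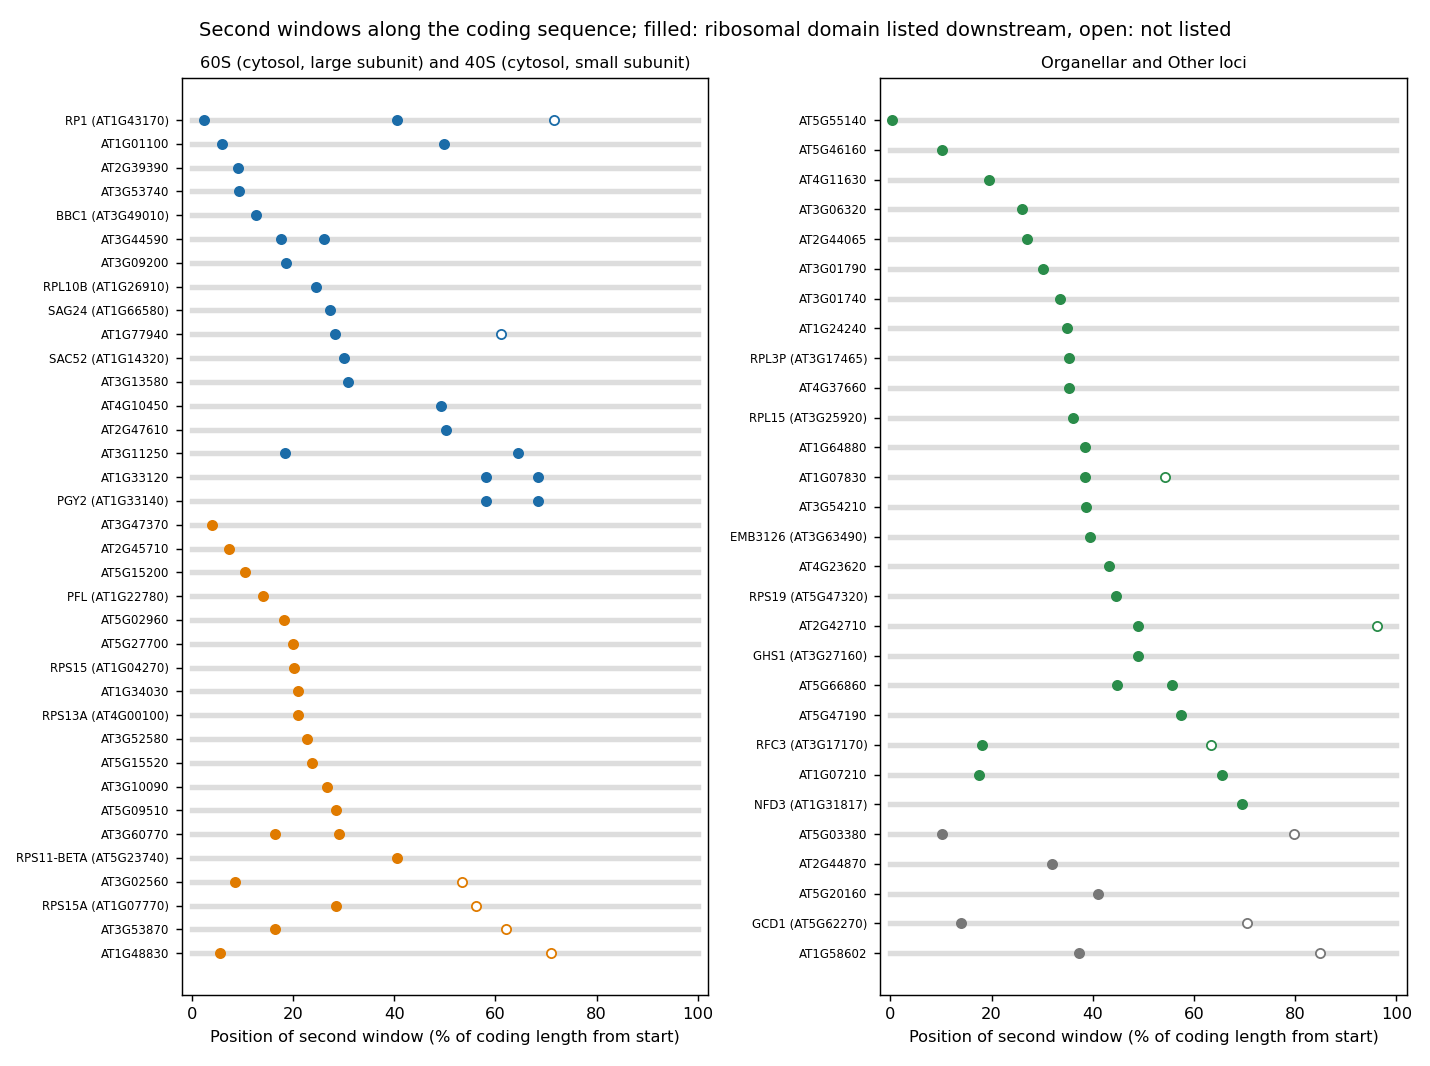
Position of each second window along the coding sequence, as a percentage of its length from the start codon, for the 65 loci grouped by subunit. Filled circles mark windows with the ribosomal domain listed downstream and open circles windows without it. Most filled circles lie before 50% of the coding length, and open circles lie further downstream than the filled one of the same locus.

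Loci with all window reads on 1 side were few. Among members with at least 20 window reads, 5 of 64 had no second-window read in white light, 3 of 64 after 45 and 2 of 63 after 90 min. Over all genes these were 10.6%, 7.64% and 8.02%. All window reads lay in the second windows in 2, 1 and 0 members, against 4.93%, 1.63% and 4.56% of all genes.

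Of a list of 25 other genes of translation, 14 were in the table. Their share rose in 5 and fell in 1 at 45 min, rose in 6 and fell in 2 at 90 min, and rose in 1 and fell in 5 between the far-red times. Over all genes 31.9% rose and 34.1% fell at 45 min, 37.6% and 30.6% at 90 min, and 34.6% and 22.8% between the far-red times. None of the 4 EF1A genes, which encode the factor that brings tRNA to the ribosome, was called in any pair. EF1A AT5G60390 had 3604, 4419 and 3453 RPM and a share of 49.6%, 51.8% and 47.5%. PAB2, a poly(A)-binding protein, had 4008, 2193 and 3088 RPM and a share of 13.5%, 47.1% and 25.7%. NUC1, a nucleolin that acts in ribosome assembly, had 133, 293 and 289 RPM and a share of 31.3%, 82.3% and 55.8%, with the highest value at 45 min as in PAB2. RACK1A, a scaffold protein of the 40S subunit, had 201, 315 and 159 RPM and a share of 5.33%, 8.08% and 25.5%, high at 90 min alone.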

How the data were processed

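PEAT libraries of 10-day-old Col-0 seedlings, 1 from each of 3 light conditions, were grouped by the treatment in the labels. The authors deposited raw counts per transcript, first window and second window in 1 table of 14437 entries, per the file headers. They also deposited p-values of Fisher's exact test per pair of libraries, per the file headers, which were not used for the calls. Per the submitters' processing notes, FastQC, cutadapt, HISAT2 2.0.5, SAMtools 0.1.19 and bedtools 2.17.0 were used, and the builds TAIR9 and TAIR10 are named. The role of each build, the window width, the treatment of duplicate reads and the rule that selected the entries are not given in the sources used here.

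The transcript with the most reads stood for a gene, and its second windows were summed (Python 3.11.15, pandas 2.3.3, scipy 1.17.1). Shares were compared with two-sided Fisher's exact tests over all genes, with 95% Wilson intervals. Levels were scaled to the table total, with a pseudocount of 1 RPM and exact binomial intervals of folds. TMM factors came from edgeR 4.0.16. The steps were tested on simulated data. RefSeq (TAIR10.1) gave symbols, chromosomes and overlaps for all 65 members; promoter motifs were not searched.

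Members, subunit classes and gene lists were chosen with earlier results of these data known. The genes named are the 8 with the most reads, the 5 at each end of level and of share at 90 min (at least 50 reads), the 3 at each end of coding length left by the most-read second window, and the stalk proteins; others were named after their values were seen. Alternatives covered scaling, pseudocount, read minimums, thresholds, window and transcript choice and membership.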

Additional observations from a re-analysis of the deposited data

Results flagged for a closer look

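The far-red libraries differ from each other in the second-window share of 19 members, 13 higher and 6 lower at 90 min than at 45 min, by Fisher's exact test of the difference itself (adjusted p under 0.05 and at least 10 points; 57.5% of all genes were called). The test compares 2 libraries with 1 per condition. In the 60S group SAC52 was 17.7 points higher and PGY2 18.2 points higher at 90 min, while RP1 changed by -12.0 points and AT3G44590 by -14.6. In the 40S group the rises were 41.2 points in AT1G48830, 31.2 in AT2G45710, 28.3 in AT3G02560 and 18.4 in AT3G53870. Among organellar loci the share was higher by 57.5 points in AT2G44065, 54.1 in AT4G11630, 39.5 in AT1G07830, 29.1 in AT5G46160, 25.4 in AT5G66860, 22.1 in RPS19 and 14.9 in RFC3. It changed by -59.7 points in AT1G07210, -35.8 in RPL3P, -34.2 in AT5G55140 and -14.5 in NFD3.

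Reads outside both kinds of window enter no share. They made up 7.59% of the member reads at 45 min and 7.85% at 90 min, against 6.44% in the white light library, so both far-red values lie above the control. Over the whole table the values were 15.2%, 17.4% and 16.7%.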

How the results depend on the processing

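Each condition has 1 library, so no replicate could be left out. No paired analysis was possible because no condition has a second library. Of 66 counts of members called under an alternative, 42 stayed within 1.5 times the count reported. The 42 include the counts without members that share window counts with another locus. That setting removed 0 members, so its counts could not differ. The share called over all genes also moves with the setting, so a count that stayed can still change its place against the table. The other counts follow, with those for no minimum change at 45 and 90 min, which are among the 42. The cause was not tested beyond what each setting itself changes. For the share, a minimum change of 20 points gave 23, 23 and 12 members (45 min, 90 min, and 90 against 45 min). These are 36.5%, 37.1% and 19.4% of those tested, against 46.9%, 50.6% and 38.1% of all genes. No minimum change gave 47, 52 and 37 members, which is 74.6%, 83.9% and 59.7%, against 74.1%, 76.1% and 67.1%. Calls under that setting were about as frequent as in the table at 45 min and more frequent at 90 min. Alternatives chosen after seeing the data were subsets of the members, which hold fewer loci. Cytosolic members gave 17 of 36, 21 of 36 and 8 of 36 calls, and organellar members 13 of 22, 16 of 21 and 11 of 21. Members with at least 200 window reads gave 19 of 40, 19 of 36 and 9 of 37. Over all genes, not matched by depth, 65.9%, 68.1% and 57.5% were called. For the level, a pseudocount of 10 RPM gave 5, 6 and 6 of 65 members past 2-fold. These are 7.69%, 9.23% and 9.23%, against 14.4%, 17.8% and 8.11% of all genes. A 1.5-fold threshold gave 25, 25 and 29 of 65 (38.5%, 38.5% and 44.6%, against 46.9%, 47.7% and 38.1%). First-window reads alone gave 22 of 64, 24 of 65 and 16 of 62 (34.4%, 36.9% and 25.8%, against 43.6%, 45.0% and 34.7%). Between the far-red times the first 2 settings put members above the table, and the main setting below it (15.4% against 17.0%). A minimum of 100 reads gave 6 of 54 at 45 min and 6 of 55 at 90 min, against 21.0% and 24.7% of all genes. One direction reversed, AT1G07210 at 90 against 45 min, whose log2 ratio was 0.28 from first-window reads alone. Among the named genes 72 other level values moved beyond their counting interval, most of them from first-window reads alone. Of their share values 28 lost their call under an alternative and 28 gained one, and 737 kept their side of the threshold. Settings that only leave out members cannot change a gene's own value, and their values are among the 737. Other scalings moved the median of all genes by at most 0.05 (log2). Few reads limit the low loci: intervals of the share were widest where a library had under 100 window reads.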
